A study of Homo sapiens with 6 samples.

Results

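The EGR, NR4A and IER genes are early response genes, and their mRNA levels were compared between akirin2 KO and WT HL60 cells. The members were chosen by name: EGR1, EGR2, EGR3, IER2, IER3, IER5, NR4A1 and NR4A2. Of these 8 genes, 7 have a row among the 17499 genes of the deposited table, and EGR2 was not analysed here. HL60 cells are an established line of human promyelocytic leukemia origin, used as a model of neutrophils. The KO cells were transfected with a complex of Cas9 and a synthetic guide RNA against akirin2, and their labels give the genotype as knock down. The WT cells carry the wild type genotype by label and were transfected with the SpCas9 nuclease alone. Both groups were thus handled with Cas9, both grew in RPMI medium with fetal bovine serum, and neither was given a stimulus according to the sources used here. The edited cells were a pool used without isolating clones, so that a KO library mixes edited and unedited cells. Each group has 3 biological replicates (KO1 to KO3 and WT1 to WT3), but no source says that they were grown as separate cultures, and the p-values then reflect only the spread from library to library, which may be technical.

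Early response genes are transcribed within minutes of a signal, without new protein synthesis, and their mRNAs and proteins are usually short-lived. EGR proteins are zinc-finger transcription factors that bind GC-rich DNA, and EGR1 is known for its rise when myeloid cells turn towards the monocyte and macrophage lineage. NR4A proteins are orphan nuclear receptors that act without a known natural ligand and are therefore set largely by how much of them is made. The IER genes share the name of immediate early response but not one protein family: IER2 and IER5 are related to each other, whereas IER3 is a small membrane protein linked to cell survival. Transcription of many early response genes is driven by serum response factor (SRF), which binds the CArG box, and by CREB, which binds the cAMP response element (CRE).

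The promoters of 3 members are shown because they differ in these sites. Sequences are from RefSeq on GRCh38.p14 and give the 250 bases before the transcription start, 5′ to 3′ on the strand of the gene. Capitals mark CArG boxes, the CRE core motif TGACG on either strand (CGTCA when on the other strand) and the TATA box motif TATAA. The intervals are chr5:138465229-138465478 for EGR1, chr1:181088450-181088699 for IER5 and chr19:13150161-13150410 for IER2, all on the plus strand.
EGR1: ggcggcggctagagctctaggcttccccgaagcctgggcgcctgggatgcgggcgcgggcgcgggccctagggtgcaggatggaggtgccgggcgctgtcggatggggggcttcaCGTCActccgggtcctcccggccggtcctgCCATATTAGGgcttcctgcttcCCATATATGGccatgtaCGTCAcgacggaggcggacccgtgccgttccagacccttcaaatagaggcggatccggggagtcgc
IER5: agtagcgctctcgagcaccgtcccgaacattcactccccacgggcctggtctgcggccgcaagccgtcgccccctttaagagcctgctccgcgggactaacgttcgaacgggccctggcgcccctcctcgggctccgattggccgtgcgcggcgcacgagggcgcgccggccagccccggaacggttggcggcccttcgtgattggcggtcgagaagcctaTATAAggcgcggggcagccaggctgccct
IER2: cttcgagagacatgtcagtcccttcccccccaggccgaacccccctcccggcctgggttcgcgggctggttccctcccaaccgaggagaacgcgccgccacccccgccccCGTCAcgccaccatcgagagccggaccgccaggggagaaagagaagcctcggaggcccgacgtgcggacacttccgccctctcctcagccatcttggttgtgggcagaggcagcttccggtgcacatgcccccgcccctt
EGR1 held 2 CArG boxes, from -105 to -96 and from -83 to -74 relative to the start, and 2 CRE core motifs, from -135 to -131 and from -66 to -62. A match to the EGR site GCGNGGGCG, which is left in lower case, lay from -198 to -190. IER5 held TATAA from -29 to -25 and no match to the other motifs. IER2 held 1 CRE core motif, from -140 to -136. Promoters were given for 2 starts of NR4A1, at chr12:52022582-52022831 and chr12:52037465-52037714, and neither held any of the motifs. The annotation holds 19 starts for NR4A1 and 3 for IER2, and promoters at their other starts were not analysed here. None of the promoters given for these 4 genes held an NF-kB site. No motif overlapped another. Among 35116 human promoters of the same length, 1.16% held a CArG box, 21.2% the CRE core motif, 8.41% the EGR site, 18.9% TATAA and 5.21% an NF-kB site, each searched on both strands. A match is a run of letters and does not show that a factor was bound. Promoters of EGR3, IER3 and NR4A2 were not analysed here.

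Values are normalized counts, that is, read counts of a gene divided by a size factor of the library. The libraries held 36096459 to 52244122 reads in these genes. Tests were made with limma on log2(normalized count + 1), two-sided, and p-values were adjusted by Benjamini-Hochberg over the 17425 genes that averaged 10 or more normalized counts. Genes with an adjusted p under 0.05 were called. Akirin2 mRNA itself was 1665 ± 60.6 (SD, n = 3) normalized counts in KO and 2416 ± 36.4 in WT, a log2 fold change of -0.54, with every KO library below every WT library. The groups differed broadly, with 60.6% of the genes called, 30.3% lower and 30.3% higher in KO. All 6 promyelocyte markers were present, of which 5 rose and CD33 was not called. Their summed level was 1012650 to 1048210 normalized counts in KO against 342711 to 362644 in WT. MPO alone averaged 537627 normalized counts in KO and 283701 in WT. Of 6 monocyte and macrophage markers in the table, CD14 and FCGR1A fell, CSF1R and LYZ rose and the remaining 2 were not called. Of 7 fibroblast and matrix markers, 4 were in the table and none was called, but their sum was 5224 normalized counts in WT1 against 547 in WT2 and 300.3 in WT3, and 321, 432 and 769.6 in KO1, KO2 and KO3. FN1 made up most of that sum in WT1 (4609) and in KO3 (679.6), and COL1A1 was also high in WT1 (519 against 48.3 in WT2 and 44.3 in WT3). COL1A2 and COL3A1 went the other way and were lowest of their group in WT1 (56.3 and 39.4) and in KO3 (27.6 and 12.0). The matrix markers DCN, LUM and POSTN have no row in the table used here. The epithelial markers KRT8 and KRT18 were not called, with a sum of 369.9 in WT1 against 23.6 in WT2 and 48.5 in WT3, and of 67.6, 17.1 and 131 in KO1, KO2 and KO3. Among lymphocyte and endothelial markers, CD3E fell from 129 ± 26.1 normalized counts in WT to 16.1 ± 4.56 in KO, CD79A rose from 142 ± 14.6 to 229 ± 10.7, and PECAM1 rose from 177 ± 20.5 to 321 ± 10.1. None of the 4 erythroid markers has a row there. Whether these differences in marker levels bear on the members was not tested.

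All 7 members tested were called lower in akirin2 KO than in WT cells and none was called higher. Over all genes tested, 30.3% were called lower. For the members the median log2 fold change was -1.37, against -0.01 over all genes tested. In each of the 7 members every KO library lay below every WT library, a separation in this direction that 32.5% of all tested genes showed. Of the 7 members, 6 fell by more than 1 on the log2 scale, as did 8.37% of all tested genes, and IER5 and NR4A1 fell by more than 2, as did 2.14%. The members lie on 7 different chromosomes. They were chosen with results of these libraries known, so these counts describe them and are not independent evidence. In cultures measured in bulk, fewer cells that express a gene and less of its RNA per cell cannot be told apart.

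**Figure D1:**
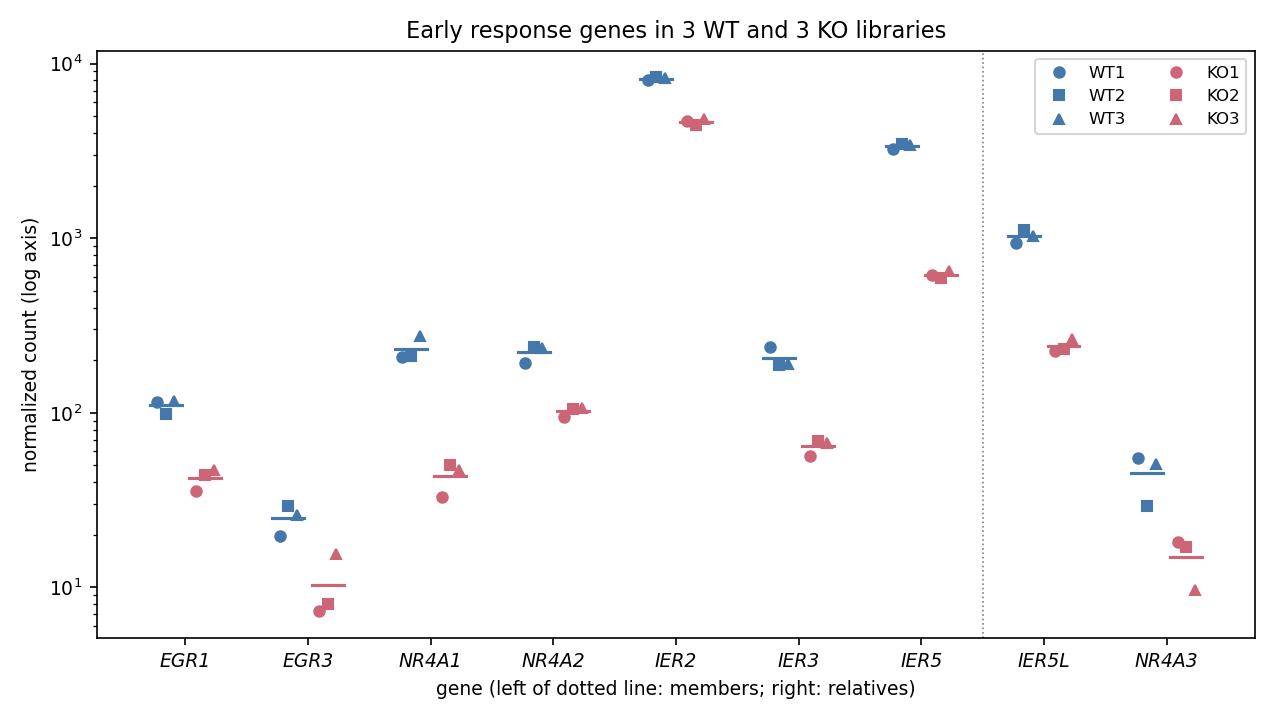
Normalized counts (log axis) of 7 early response genes and 2 relatives in each library, with WT in blue, KO in red, marker shapes for replicates 1 to 3 and a bar at the mean of each group. In every gene the 3 KO libraries sit below the 3 WT libraries, with the narrowest gap in EGR3, where KO3 is at 15.6 and WT1 at 19.7.

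EGR1 (ENSG00000120738, chromosome 5, 138465490 to 138469315 on GRCh38, plus strand, 2 exons) had a lower level in KO than in WT. Its normalized counts were 115, 98.9 and 116 in WT1, WT2 and WT3, and 35.6, 44.2 and 46.8 in KO1, KO2 and KO3. The groups were far apart, with KO3, the highest KO library, well below WT2, the lowest WT library. The means were 110.2 ± 9.80 in WT and 42.2 ± 5.85 in KO (SD, n = 3), a WT to KO ratio of 2.61. On the log2 scale EGR1 fell by 1.37 (SE 0.19, adjusted p = 3.1e-06 from limma). Of all tested genes, 5.09% had a lower log2 fold change. The coefficient of variation was 8.89% in WT and 13.9% in KO, and counting alone gives 9.26% and 15.7%, so that the replicates of EGR1 scattered no more than its read number allows.

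EGR3 (ENSG00000179388, chromosome 8, 22687659 to 22693302, minus strand) encodes a relative of EGR1 known for its roles in lymphocytes and muscle spindles, and it was the member with the lowest level. It held 19.7, 29.2 and 25.9 normalized counts in WT1, WT2 and WT3, and 7.31, 8.03 and 15.6 in KO1, KO2 and KO3. The groups did not overlap, but KO3 lay closer to WT1 than to the other KO libraries. The means were 25.0 ± 4.83 in WT and 10.3 ± 4.60 in KO, and the WT mean was 2.42 times the KO mean. The fall of EGR3 on the log2 scale was called, with a fold change of -1.25 (SE 0.40, adjusted p = 0.010 from limma) and the widest error among the members. These values rest on 78 reads pooled over the WT libraries (exact 95% Poisson interval 61.7 to 97.3) and 29 over the KO libraries (19.4 to 41.6), intervals that cover counting error only. WT1 and KO3 are also the libraries with the highest FN1, KRT8 and KRT18 of their groups, though with the lowest COL1A2 and COL3A1. Without both, the log2 fold change of EGR3 was -1.72 (adjusted p = 0.0059 from limma).

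A difference between the falls of EGR1 and EGR3 was not detectable at this depth. The log2 ratio of EGR3 to EGR1 within a library was -2.49, -1.72 and -2.12 in WT1, WT2 and WT3, and -2.14, -2.32 and -1.53 in KO1, KO2 and KO3. The groups overlapped, and their means differed by 0.12 (SE 0.33, exact permutation p = 0.8, two-sided). It turned to -0.07 without WT1, to -0.12 without KO3 and to -0.31 without both, so that no direction can be given for it.

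NR4A1 (ENSG00000123358, chromosome 12, 52022832 to 52059507, plus strand) encodes the receptor known as Nur77, a regulator of apoptosis and of inflammation in myeloid cells. Its normalized counts were 207, 211 and 275 in WT1, WT2 and WT3, and 32.9, 50.2 and 46.8 in KO1, KO2 and KO3. All KO libraries were low, and they were far below the lowest WT library. The means were 231 ± 38.1 in WT and 43.3 ± 9.18 in KO, and the WT mean was 5.34 times the KO mean. NR4A1 had a log2 fold change of -2.40 (SE 0.18, adjusted p = 8.0e-10 from limma), and 1.33% of all tested genes had a lower one. WT3 stood above the other WT libraries, and the coefficient of variation in WT, 16.5%, exceeded the 6.38% that counting gives.

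NR4A2 (ENSG00000153234, chromosome 2, 156324432 to 156342348, minus strand) encodes Nurr1, best known for its need in dopamine neurons. It held 192, 237 and 235 normalized counts in WT1, WT2 and WT3, and 94.1, 105 and 107 in KO1, KO2 and KO3. The KO libraries were close together and each lay below the lowest WT library. The means were 222 ± 25.2 in WT and 102 ± 6.99 in KO, and the WT mean was 2.17 times the KO mean. For NR4A2 the log2 fold change was -1.11 (SE 0.13, adjusted p = 4.7e-07 from limma).

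The fall of NR4A1 was the larger of the pair in these libraries. The log2 ratio of NR4A2 to NR4A1 counts, which is not corrected for length, was -0.11, 0.17 and -0.23 in WT1, WT2 and WT3. It was 1.49, 1.06 and 1.17 in KO1, KO2 and KO3, so that each KO library lay above each WT library. The mean rose from -0.06 ± 0.20 to 1.24 ± 0.22 (SD, n = 3), a difference of 1.30 (SE 0.17). The exact permutation test gave p = 0.1, the smallest that 3 libraries against 3 allow, and 0.133 after Benjamini-Hochberg adjustment over the 4 ratios tested. The design therefore cannot bring this difference under 0.05 by permutation.

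IER2 (ENSG00000160888, chromosome 19, 13150415 to 13154908, plus strand) encodes a nuclear protein and had by far the highest level among the members. Its normalized counts were 8044, 8322 and 8237 in WT1, WT2 and WT3, and 4704, 4472 and 4786 in KO1, KO2 and KO3. Within each group the libraries were nearly level, and the groups were wide apart. The means were 8201 ± 142 in WT and 4654 ± 163 in KO, and the WT mean was 1.76 times the KO mean, the smallest ratio among the members. This gave a log2 fold change of -0.82 (SE 0.04, adjusted p = 4.4e-12 from limma), and 11.8% of all tested genes had a lower one.

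IER3 (ENSG00000137331, chromosome 6, 30743199 to 30744554, minus strand), also known as IEX-1, encodes a stress-induced protein that modulates apoptosis and ERK signalling. It held 238, 188 and 189.9 normalized counts in WT1, WT2 and WT3, and 56.7, 69.3 and 67.2 in KO1, KO2 and KO3. WT1 was the highest library, and all KO libraries were well below the WT libraries. The means were 205 ± 28.7 in WT and 64.4 ± 6.79 in KO, and the WT mean was 3.19 times the KO mean. IER3 thus had a log2 fold change of -1.65 (SE 0.15, adjusted p = 1.4e-08 from limma).

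IER5 (ENSG00000162783, chromosome 1, 181088712 to 181092899, plus strand, 1 exon) encodes a protein that activates the heat shock factor HSF1, and it showed the largest fall among the members, within the error of that of NR4A1. Its normalized counts were 3258, 3463 and 3398 in WT1, WT2 and WT3, and 611, 589 and 649.6 in KO1, KO2 and KO3. The replicates of each group were close together, and the groups were far apart. The means were 3373 ± 105 in WT and 616 ± 30.8 in KO, and the WT mean was 5.47 times the KO mean. Its log2 fold change was -2.45 (SE 0.05, adjusted p = 1.3e-17 from limma), and 1.26% of all tested genes had a lower one.

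Relative to IER2, both other IER genes fell further. The log2 ratio of IER5 to IER2 was -1.30, -1.26 and -1.28 in WT1, WT2 and WT3, and -2.94, -2.92 and -2.88 in KO1, KO2 and KO3. The replicates were within a few hundredths of each other, and the means differed by -1.63 (SE 0.02). The log2 ratio of IER3 to IER2 was -5.32 ± 0.22 in WT and -6.16 ± 0.18 in KO, a difference of -0.84 (SE 0.16), again with every KO library below every WT library. Both gave the smallest exact permutation p of 0.1 (0.133 adjusted over the 4 ratios). Apart from the pseudocount, size factors cancel in such a ratio, so that these differences hardly depend on how the libraries were scaled.

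**Figure D2:**
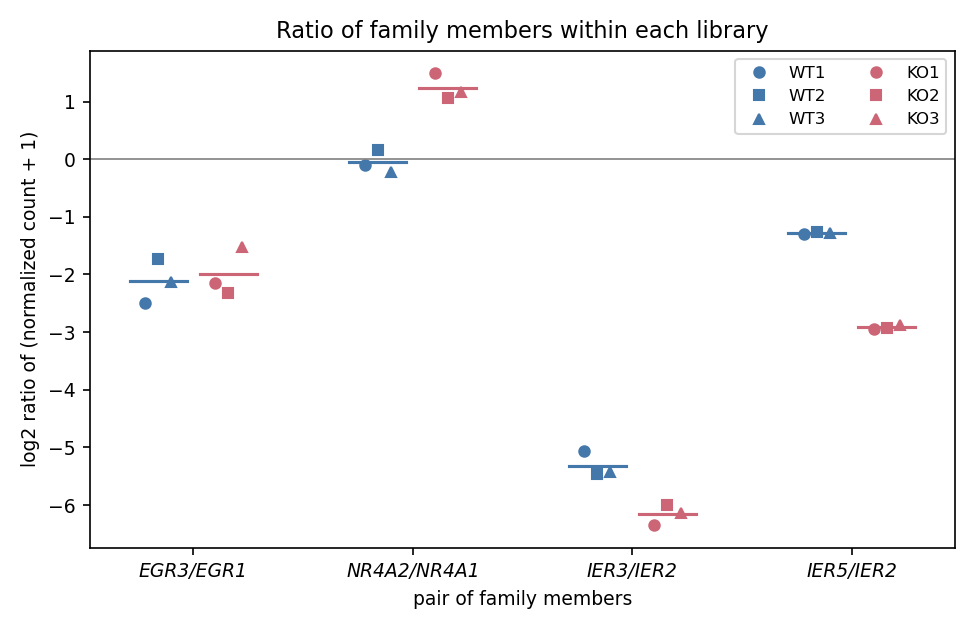
Log2 ratio of normalized counts (each + 1) for 4 pairs of family members within each library, with WT in blue, KO in red, marker shapes for replicates 1 to 3 and a bar at the mean of each group. The groups overlap for EGR3/EGR1 and are apart for the other 3 pairs, with differences of 1.30, -0.84 and -1.63.

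**Figure D3:**
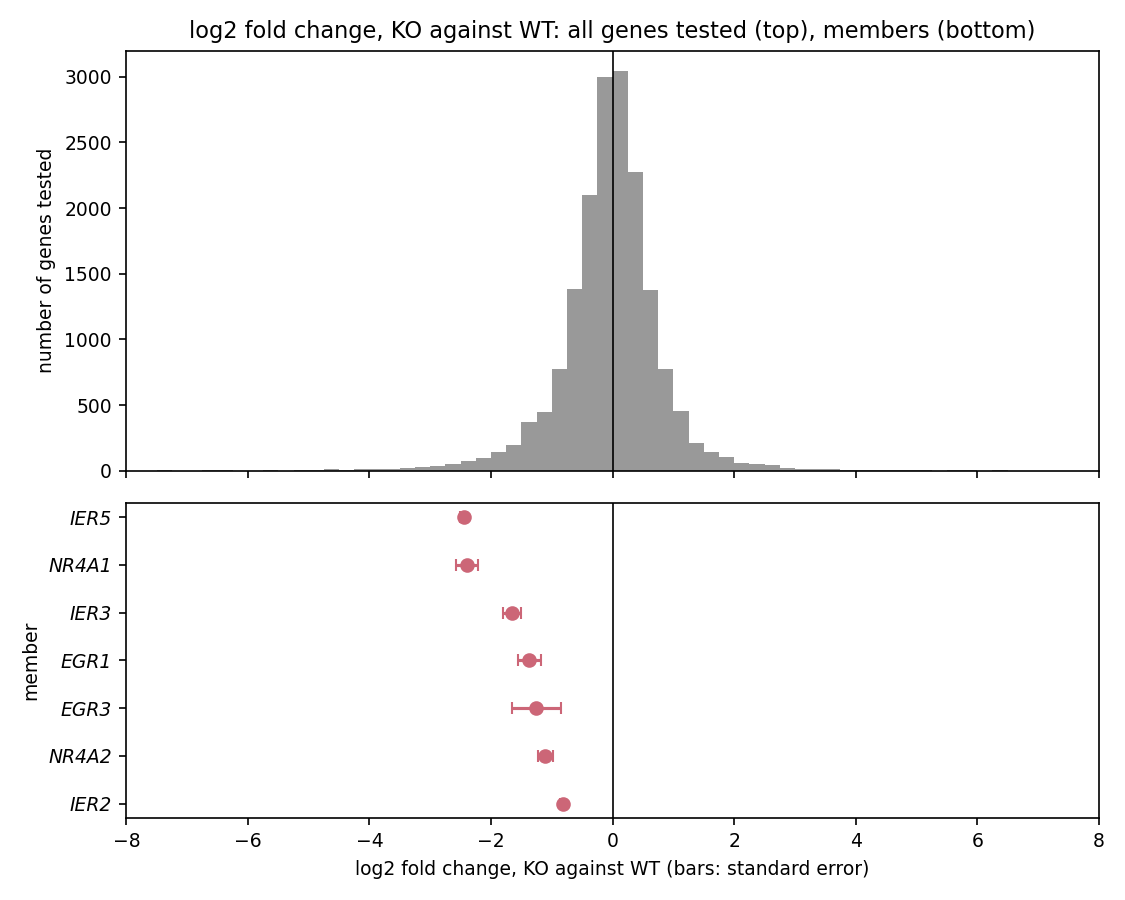
Number of genes (top) in bins of log2 fold change, KO against WT, over the 17425 genes tested, and the log2 fold change of each of the 7 members (bottom) with bars for the standard error. The members lie between -2.45 for IER5 and -0.82 for IER2, left of the peak of all genes around 0.

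Levels of different genes were compared per kilobase of exon, using the length of all annotated exons joined, which can understate a gene with many alternative exons such as NR4A1. In WT cells the order was IER2 with 2670 normalized counts per kilobase, IER5 with 806, IER3 with 151, NR4A2 with 55.9, EGR1 with 35.1, NR4A1 with 31.7 and EGR3 with 5.14. EGR1 and NR4A1 overlapped between libraries and cannot be ordered, and all other neighbours were apart. Of all tested genes, 96.6% had a lower WT level per kilobase than IER2, 87.3% a lower one than IER5 and 6.95% a lower one than EGR3. In KO cells the means had the same order, from 1515 for IER2 and 147 for IER5 through 47.5 for IER3, 25.8 for NR4A2, 13.4 for EGR1 and 5.94 for NR4A1 to 2.13 for EGR3, and here every neighbour was apart. All 7 members had reads in every library.

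The members are compact genes. Their median genomic span was 4494 bases (1356 for IER3 to 36676 for NR4A1) with a median of 2 exons, where the 12566 protein-coding genes tested had medians of 31536 bases and 10 exons. EGR3, IER2, IER3 and NR4A1 each overlap an annotated RNA on the opposite strand, none of which has a row in the table. The sources do not say whether counting used strand, and without it reads of a gene and of its antisense partner cannot be told apart.

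Relatives outside the 8 genes fell as well. IER5L, an IER5-like gene without introns on chromosome 9, held 939.7, 1108 and 1035 normalized counts in WT1, WT2 and WT3, and 227, 231 and 265 in KO1, KO2 and KO3. Its log2 fold change was -2.09 (SE 0.08, adjusted p = 9.0e-14 from limma). NR4A3, the remaining NR4A receptor, held 55.4, 29.2 and 51.0 normalized counts in WT1, WT2 and WT3, and 18.3, 17.1 and 9.61 in KO1, KO2 and KO3. In both genes every KO library lay below every WT library, a separation that 32.5% of all tested genes showed. The log2 fold change of NR4A3 was -1.53 (SE 0.34, adjusted p = 6.6e-04 from limma). Both genes were called lower, as were 30.3% of all tested genes, and both fell by more than 1, as did 8.37%. EGR4 was not analysed here.

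Among 30 other immediate early genes tested, 21 fell, 1 rose and 8 were not called, where 30.3% of all tested genes were called lower. Their median log2 fold change was -1.38 (-0.01 over all genes tested). Of the 30, 18 fell by more than 1, as did 8.37% of all tested genes. KLF2, a transcription factor of quiescent leukocytes and endothelium, had the largest change, at 2587 ± 205 normalized counts in WT and 23.6 ± 9.02 in KO (log2 fold change -6.78, SE 0.17, adjusted p = 6.1e-17 from limma). MYC, which drives growth and proliferation, had the highest mean and was the gene that rose, from 45268 ± 1027 in WT to 75991 ± 1043 in KO (log2 fold change 0.75, SE 0.05). The fall did not extend to every classic immediate early gene. FOS, named here after its values were seen, was at 249 ± 31.6 in WT and 237 ± 36.3 in KO, with overlapping libraries (log2 fold change -0.07, SE 0.12, adjusted p = 0.63 from limma). JUN, also named after its values were seen, fell from 8558 ± 413 to 280.1 ± 22.9 (log2 fold change -4.93, SE 0.06).

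NAB1 and NAB2 are corepressors that bind EGR proteins. NAB2 fell from 667 ± 48.3 normalized counts in WT to 341 ± 29.9 in KO (log2 fold change -0.97, SE 0.08, adjusted p = 7.1e-09 from limma), whereas NAB1 was at 837 ± 46.0 in WT and 886 ± 5.48 in KO and was not called (0.08, SE 0.06). The retinoid X receptors pair with NR4A1 and NR4A2 on DNA, and both that were tested fell. RXRA had a log2 fold change of -0.29 (SE 0.04) and RXRB one of -0.33 (SE 0.05). Over all genes tested, 30.3% were called lower. RXRG was not analysed here.

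Upstream of these genes, SRF was at 2573 ± 259 normalized counts in WT and 2589 ± 46.9 in KO (log2 fold change 0.01, SE 0.06, not called). Of SRF and 5 cofactors, which include the ERK-responsive ELK proteins, ELK4 (-0.36) and MKL1 (-0.28), a coactivator that senses actin, fell, ELK1 rose (0.21) and 3 were not called, with a median log2 fold change of -0.02. Of 8 genes of the CREB family and its coactivators, 6 fell, none rose and 2 were not called. Their median was -0.44, where 30.3% of all tested genes were called lower, with a median of -0.01. The largest change was in CRTC3 (log2 fold change -0.78, SE 0.08) and the highest mean in CRTC2 (-0.59, SE 0.06), both coactivators that enter the nucleus when cAMP rises.

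The RAS to ERK cascade is known to carry growth factor signals to many early response genes. Of 12 genes in it, 9 fell, 1 rose and 2 were not called, with a median log2 fold change of -0.26. MAPK3, which encodes ERK1, fell most (-0.78, SE 0.08), and MAP2K2, which encodes the kinase MEK2, had the highest mean (-0.73, SE 0.05), while HRAS rose (0.16, SE 0.05). Of 9 inhibitors that ERK signalling feeds back on itself, 5 fell, 1 rose and 3 were not called, with a median of -0.28. SPRED1 fell most (-0.95, SE 0.14), SPRED2 had the highest mean (-0.55, SE 0.05), and SPRY4 rose (0.50, SE 0.21, adjusted p = 0.046 from limma) with overlapping libraries. By comparison, 30.3% of all tested genes were called lower, 8.37% fell by more than 1, and the median was -0.01. None of the 39 genes in these lists of corepressors, dimer partners, SRF, CREB and ERK genes fell by more than 1. These are mRNA levels and do not measure the activity of the kinases or factors.

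**Figure D4:**
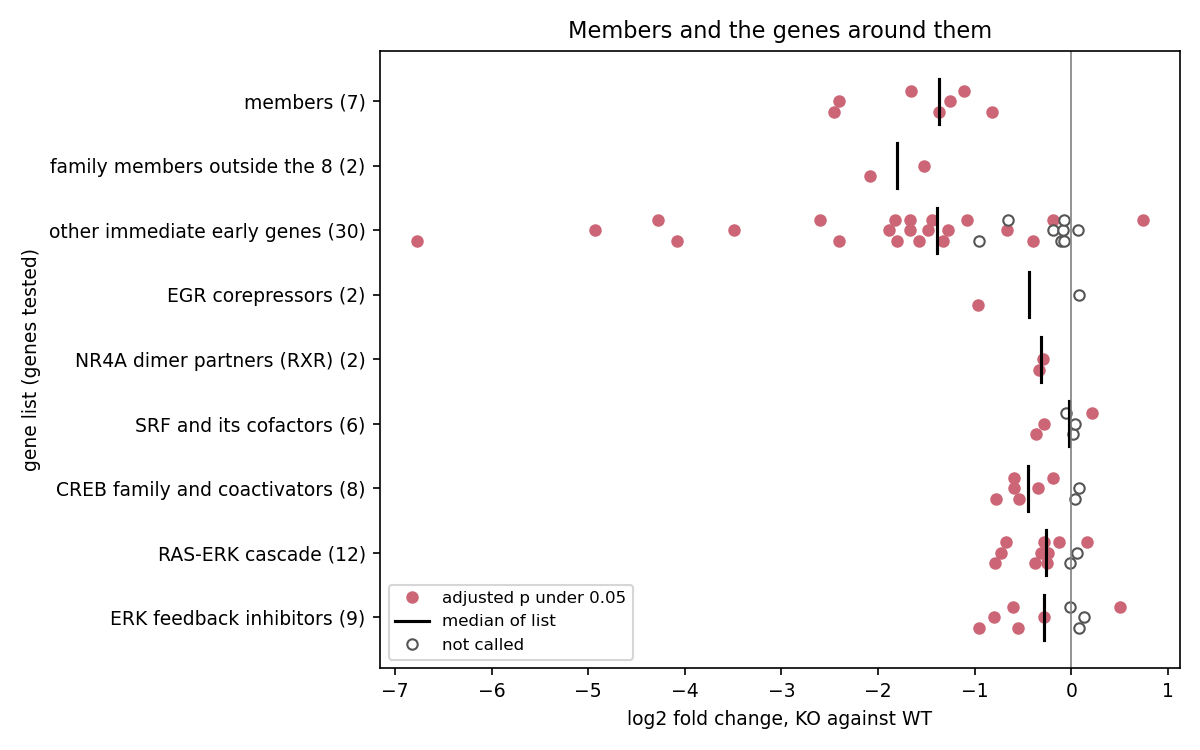
Log2 fold change, KO against WT, of each tested gene (points, red where the adjusted p is under 0.05 and open where not called) in the members and in 8 related lists, with a bar at the median of each list. The members and their 2 relatives are all below -0.8, other immediate early genes spread from -6.78 to 0.75, and the remaining lists have medians between -0.44 and -0.02.

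The genes whose profile over the 6 libraries was most like that of EGR1 were sought among 11296 genes that averaged 100 or more normalized counts, by the root mean square difference of log2 values, each gene centred on its own mean. The nearest was CREBRF, a negative regulator of the factor CREB3, at a difference of 0.06. It was followed by KLF9, a Kruppel-like transcription factor, at 0.09, and by AC110285.2 at 0.10. BTBD19 and DRAM1, a lysosomal membrane protein of autophagy, came next at 0.11 each, where the median over all candidates was 0.71. These 5 genes had log2 fold changes between -1.47 for KLF9 and -1.25 for BTBD19, and likeness over 6 libraries mainly reflects a fall of similar size. The measure says nothing on whether they share control with EGR1.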

How the data were processed

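PolyA-selected RNA of 3 KO and 3 WT libraries was sequenced. Per the submitters' processing notes, the tools were DESeq2, featureCounts, Subread 1.5.2 and Trimmomatic 0.36, with the build GRCh38. Which aligner and annotation were used is not given in the sources used here. In the deposited table the authors give a signal value for each gene, its number of reads over the size factor of the library. All values of each library were whole multiples of the value of 1 read (tolerance 0.01), which gave the read numbers, 41419318 to 52244122 in WT and 36096459 to 47607520 in KO. The log2 fold changes and p-values that the authors deposited come from their own comparison and were not used. Identifiers of 17420 genes (99.55%) were matched to GENCODE release 29 for coordinates and exon lengths.

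From the deposited values log2(normalized count + 1) was computed and tested with limma 3.58.1 (lmFit, eBayes with a variance trend) in R 4.3.3 over genes with a mean of at least 10. Such fold changes understate the change of low genes. Exact permutation tests over 3 against 3 libraries cannot go below p = 0.1, and each member reached that value. Ratios with EGR2 were left out, which left 4. Alternatives were pseudocounts of 0.5 and 5, scaling by TMM or to equal totals, no minimum count and one of 50 on the mean, DESeq2 1.42.0 and edgeR 4.0.16 on the recovered reads, no variance trend, a linear model without the log, a replicate block, each library left out and WT1 with KO3 left out. The steps were tested on simulated data, in which far fewer genes changed than were called here. Only genes with a higher mean than EGR3 were changed, so that test does not cover a gene as low as EGR3. Promoter motifs, tables and figures were made with Python 3.11.15, pandas 2.3.3 and matplotlib 3.10.9.

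Named genes were every member, the gene with the largest change and the one with the highest mean of each other list, genes needed to name a count of 5 or fewer, and the 5 nearest to EGR1. The members and lists were chosen with earlier results of these data known.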

Additional observations from a re-analysis of the deposited data

How the results depend on the processing

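All members tested were called lower under each of the 18 alternatives, which were 7 members, or 6 with a minimum mean of 50, where EGR3 was left out for its low level. Genes called ranged from 8760 to 10611 (10552 as reported), and other immediate early genes called lower from 20 to 23. The log2 fold change ranged from -1.45 to -1.25 for EGR1, from -1.72 to -0.99 for EGR3, from -2.54 to -2.22 for NR4A1, from -1.24 to -1.05 for NR4A2, from -0.85 to -0.76 for IER2, from -1.71 to -1.54 for IER3 and from -2.51 to -2.39 for IER5. The adjusted p of EGR3 from limma, edgeR or DESeq2 stayed between 0.0045 and 0.048, the latter without WT2. The KO minus WT difference in the log2 ratio of EGR3 to EGR1 was 0.12 as reported. It ranged from -0.12 (without KO3) to 0.31 (without WT2) when 1 library was left out. This difference was -0.07 without WT1 and -0.31 without WT1 and KO3. For the log2 ratio of IER5 to IER2, the KO minus WT difference was -1.63 as reported and -1.66 without WT1 and KO3. The cause was not tested. With equal library totals 4632 genes were called lower and 5914 higher. Same-numbered KO and WT libraries did not deviate together (correlations -0.07, 0.05 and -0.08), and a replicate block gave 10394 calls and 7 members called lower. EGR3 rests on the fewest reads, and at 29 pooled KO reads its fold change is known only roughly. With 1 contrast and 3 libraries a group, differences in the size of the fall between members could not pass a permutation test.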
